A study of Mus musculus with 4 samples.

Results

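The genes described here are those of the contractile apparatus of heart and smooth muscle, followed through day 3 mesoderm with more or less of the transcription factor ER71. They were chosen by name, with earlier results of these data known. The 10 symbols were looked up in the annotation of the arrays, and a gene was used if a probe set carried its symbol and no other. That gave 8 genes of the 14860 named on the arrays, each with 1 probe set: the atrial myosin light chain Myl7, cardiac troponin T (Tnnt2), the tropomyosins Tpm1 and Tpm2, smooth muscle actin (Acta2), the calponins Cnn1 and Cnn2, and transgelin (Tagln). The other 2, cardiac actin (Actc1) and the smooth muscle myosin light chain Myl9, had no probe set named for them in the annotation used and were not analysed here.

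Muscle shortens when myosin heads pull on actin filaments. In striated muscle the troponin complex, lying on tropomyosin, opens those filaments to myosin when calcium rises, whereas in smooth muscle the switch is phosphorylation of the myosin light chain, with calponin and transgelin bound along actin. In the embryo, cells expressing Flk-1 (the VEGF receptor encoded by Kdr) give rise to blood and vessels and also to heart and smooth muscle. ER71, an ETS-family factor encoded by Etv2, is known as a regulator of the blood and vessel fates within this mesoderm.

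The arrays measured RNA of Flk-1-positive mouse cells sorted from embryonic stem (ES) cell cultures on day 3 of differentiation, with 1 array for each of 4 groups. An ES line with inducible ER71 (iER71, genotype given as wild-type) was grown without doxycycline or with 1 mg/ml of it for the last day (day 2 to 3), and cells of genotype Er71-/- were set against wild-type ES cells. All ES cells had been kept on embryonic fibroblast feeders and differentiated in serum. The labels do not give the promoter of the inducible gene, the number of clones or the design of the deletion. The titles of the iER71 arrays go against their treatment labels: the array with doxycycline is titled as the control and the array without it as the one overexpressing ER71. Arrays are named below by doxycycline, and by the titles the difference between the iER71 arrays would have the opposite meaning. The array without doxycycline would then not be a reference free of ER71 change. Etv2 was at log2 10.50 with doxycycline, 10.05 without, 9.39 in the wild type and 8.89 in the Er71-deficient cells. Kdr, the sorted marker, lay between 9.67 and 10.19 on the 4 arrays.

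Values are log2 of the deposited linear intensity, and a level is read only within a gene, because the brightness of different probe sets is not comparable. With 1 array per group there is no replicate, error or test, and how few the arrays are limits the precision throughout. A difference is called at 2-fold, that is 1 on the log2 scale, and a gene was taken as detected when at least 1 array was at or above the median of all deposited values (intensity 71.6, log2 6.16). That left 8843 genes, among them the 8 contractile genes. Myl7 was below this level on the doxycycline array, and the other genes lay above it on every array.

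All 8 contractile genes measured had their lowest level on the iER71 array with doxycycline. In 6 of them, Myl7, Cnn1, Tagln, Cnn2, Tpm1 and Tpm2, the highest level was on the Er71-deficient array, with the untreated iER71 and wild-type arrays in between. A level lowest with doxycycline and highest without Er71 was found in 9.17% of the 8843 detected genes (811 genes, and 1294 after cyclic loess normalization), and the lowest level was on the doxycycline array in 26.8%. The remaining genes, Acta2 and Tnnt2, were brightest in wild type, as were 26% of detected genes. The genes differed widely in size: the brightest array exceeded the dimmest at least 6.25-fold for Myl7, whose dimmest array was under the detection level and is replaced by that level here, 5.02-fold for Cnn1, 3.55-fold for Tnnt2, 2.70-fold for Acta2, 2.36-fold for Tagln, 1.78-fold for Cnn2, 1.72-fold for Tpm1 and 1.34-fold for Tpm2. In bulk samples like these, fewer cells of a type and less RNA per cell cannot be told apart.

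**Figure D1:**
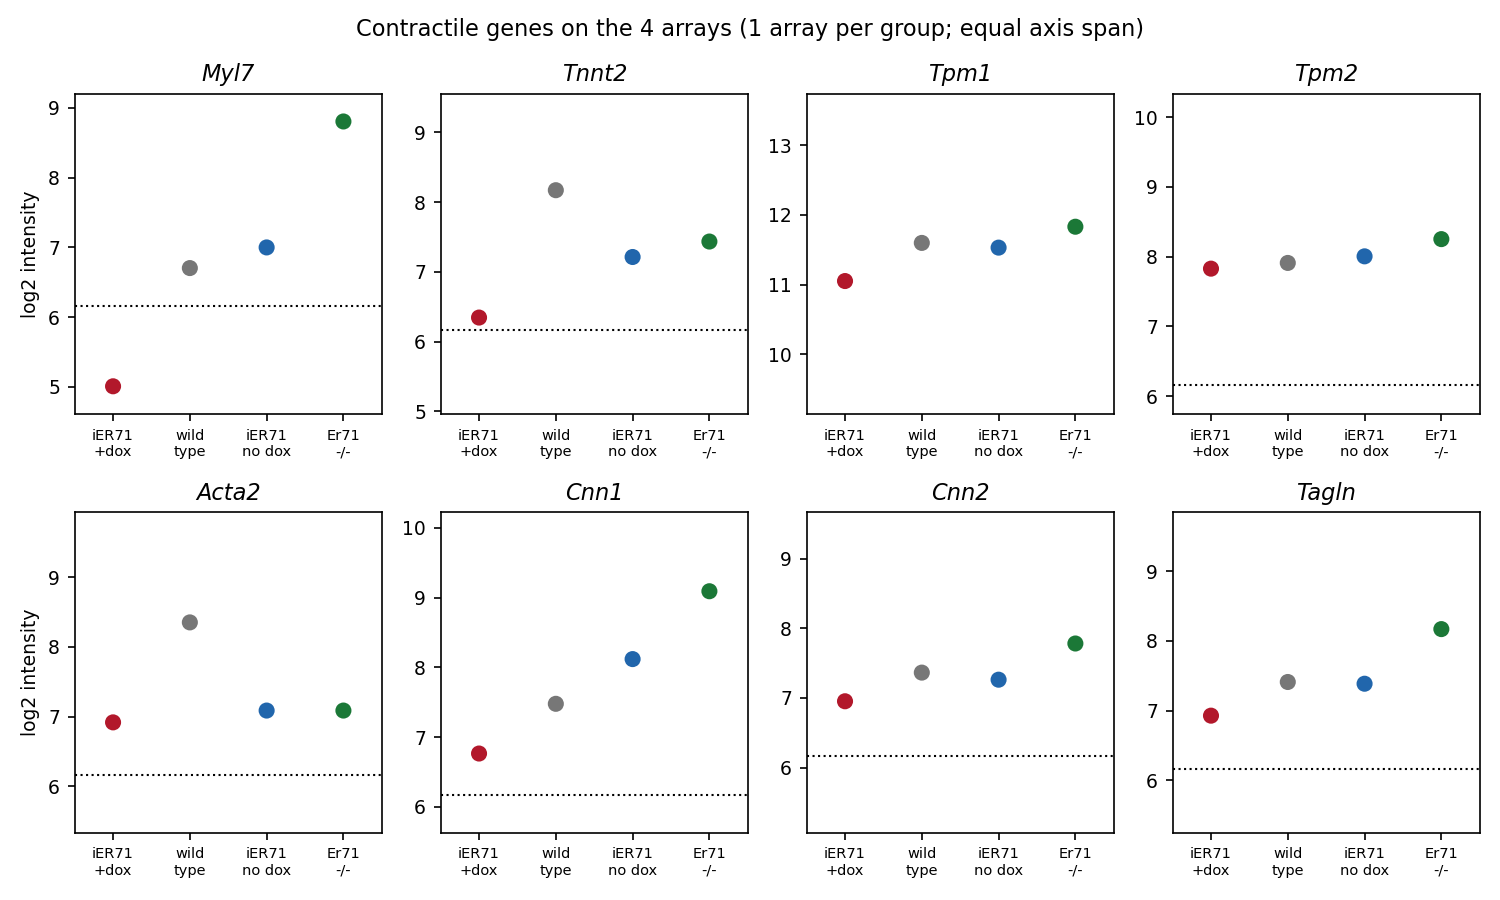
Log2 intensity of the 8 contractile genes on each of the 4 arrays, 1 point per array, with the same span on every vertical axis and a dotted line at the detection level of 6.16 where it falls in the panel. The doxycycline array is the lowest point for each gene, the Er71-deficient array is the highest for 6, and wild type is the highest for Tnnt2 and Acta2.

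The start regions of 4 of these genes are shown: Myl7, Cnn2 and Cnn1, all highest in Er71-deficient cells, and Acta2, brightest in wild type. Contractile genes are textbook targets of serum response factor (SRF), which binds the CArG box: CC and GG around 6 bases that are each A or T. The sequences are RefSeq's, build GRCm38.p6, running from 250 bases before to 50 bases after the start site, in the direction of the gene. Capitals mark a CArG box, a CArG-like match with 1 of the 6 middle bases C or G, and the muscle element CATTCC on either strand (GGAATG on the other strand).
Myl7 (chr11:5898733-5899032, minus strand): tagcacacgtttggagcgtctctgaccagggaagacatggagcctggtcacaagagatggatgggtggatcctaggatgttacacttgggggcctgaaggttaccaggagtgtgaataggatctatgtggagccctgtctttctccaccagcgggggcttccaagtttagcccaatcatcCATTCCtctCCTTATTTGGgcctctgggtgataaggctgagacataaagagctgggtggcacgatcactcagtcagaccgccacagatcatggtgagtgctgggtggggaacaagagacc
Cnn2 (chr10:79988350-79988649, plus strand): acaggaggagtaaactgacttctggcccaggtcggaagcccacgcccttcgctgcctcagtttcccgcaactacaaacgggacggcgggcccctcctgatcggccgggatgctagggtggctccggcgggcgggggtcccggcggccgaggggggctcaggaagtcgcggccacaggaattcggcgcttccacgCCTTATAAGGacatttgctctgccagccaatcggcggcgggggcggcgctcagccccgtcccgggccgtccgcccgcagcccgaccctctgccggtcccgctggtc
Acta2 (chr19:34255324-34255623, minus strand): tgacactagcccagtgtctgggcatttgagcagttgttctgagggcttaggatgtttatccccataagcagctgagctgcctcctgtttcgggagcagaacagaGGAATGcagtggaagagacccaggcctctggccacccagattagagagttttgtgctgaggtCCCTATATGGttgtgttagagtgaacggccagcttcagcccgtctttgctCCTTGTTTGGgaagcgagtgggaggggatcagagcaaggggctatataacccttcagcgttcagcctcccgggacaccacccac
Cnn1 (chr9:22099003-22099302, plus strand): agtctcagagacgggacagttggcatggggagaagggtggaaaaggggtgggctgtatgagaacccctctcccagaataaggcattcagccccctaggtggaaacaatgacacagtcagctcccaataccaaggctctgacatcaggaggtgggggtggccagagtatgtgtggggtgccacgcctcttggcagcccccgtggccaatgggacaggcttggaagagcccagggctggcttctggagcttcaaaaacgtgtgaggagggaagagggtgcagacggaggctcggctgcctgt

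Myl7, highest without Er71, had the CArG box CCTTATTTGG with its first base at -61 from the start site and CATTCC at -70. Cnn2 had CCTTATAAGG at -56. Acta2 had no exact CArG box but the CArG-like matches CCCTATATGG at -84 and CCTTGTTTGG at -34, and GGAATG at -146. Cnn1, the gene that came next to Myl7 in size of difference, had none of these letters in its window. Among 32851 start windows of the same length in the table, 1.63% held a CArG box, 8.50% a CArG-like match and 14.7% CATTCC on either strand. Of the 10 listed genes, 9 had a window, and 4 of them held a CArG box: Myl7, Cnn2 and the unmeasured Actc1 and Myl9. A match of letters is a description and not a binding site, and the windows do not cover introns or distant enhancers.

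Myl7 encodes the regulatory myosin light chain that marks the early heart tube and later the atria. Its log2 intensity was 5.01 with doxycycline, 7.0 without, 6.70 in the wild type and 8.81 in the Er71-deficient cells. The untreated and wild-type arrays lay close together, the Er71-deficient array stood well above them and the doxycycline array well below. In Er71-deficient cells Myl7 was 4.29-fold higher than in wild type. With doxycycline its measured value was 3.98-fold lower than without, but that value is under the detection level, and against the detection level itself the array was at least 1.79-fold lower. The difference was -0.94, also under 2-fold, once an offset equal to the detection level was added to the linear intensities.

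Tnnt2 encodes the troponin subunit that ties the complex to tropomyosin and is a common marker of heart muscle cells. Its log2 intensity was 6.34 with doxycycline, 7.21 without, 7.43 in the Er71-deficient cells and 8.17 in the wild type. The doxycycline array was the lowest here too, but wild type, not the Er71-deficient array, was the highest. Tnnt2 was 1.83-fold lower with doxycycline than without and 1.67-fold lower in Er71-deficient cells than in wild type, neither reaching 2-fold. Wild type also exceeded the untreated iER71 array, by 1.94-fold. Against that array in place of wild type, an alternative added after the values were seen, the Er71-deficient cells were 0.22 higher on the log2 scale, so the direction for Tnnt2 turned with the reference array.

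Tropomyosin lies along actin in muscle and non-muscle cells alike, and Tpm1 and Tpm2 give rise to both kinds of isoform, which a single probe set per gene does not separate. Tpm1 stood at log2 11.05 with doxycycline, 11.53 without, 11.60 in the wild type and 11.83 in the Er71-deficient cells. Tpm2 had 7.83, 8.0, 7.91 and 8.25 in the same order of arrays. Both genes kept to a narrow range. Tpm1 was 1.39-fold lower with doxycycline and 1.17-fold higher in Er71-deficient cells. Tpm2 was 1.13-fold lower and 1.27-fold higher.

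Acta2 encodes smooth muscle alpha-actin, which is also made for a time in the embryonic heart and in activated fibroblasts. Its log2 intensity was 6.92 with doxycycline, 7.09 without, 7.09 in the Er71-deficient cells and 8.35 in the wild type. Wild type stood alone, and the other 3 arrays lay within 0.17 of each other. The untreated and Er71-deficient arrays held exactly the same deposited value, a kind of tie that 15.1% to 20.0% of probe sets showed for any pair of arrays. The actin genes are nearly alike in coding sequence, and how far the probes separate them is not given in the sources used here. Acta2 was 2.40-fold lower than wild type on the untreated iER71 and Er71-deficient arrays and only 1.12-fold lower with doxycycline than without. The difference from wild type was -0.94 with an offset on the linear scale, under 2-fold.

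Cnn1 encodes the calponin of differentiated smooth muscle, which binds actin and slows its sliding over myosin. Its log2 intensity was 6.76 with doxycycline, 8.12 without, 7.48 in the wild type and 9.09 in the Er71-deficient cells. Each step of this order was at least 0.64 on the log2 scale, so no group of arrays lay close together. Cnn1 was 2.56-fold lower with doxycycline than without and 3.06-fold higher in Er71-deficient cells than in wild type. The choice of reference mattered: it was 1.64-fold lower with doxycycline than in wild type, and 1.96-fold higher in Er71-deficient than in untreated iER71 cells, both under 2-fold. The doxycycline difference was -0.95 once an offset was added on the linear scale.

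Cnn2, a calponin also made outside muscle, had the same lowest and highest arrays over a smaller range, at log2 6.95 with doxycycline, 7.26 without, 7.36 in the wild type and 7.78 in the Er71-deficient cells. Tagln, an actin-binding protein and an early marker of smooth muscle, had 6.93 with doxycycline, 7.39 without, 7.41 in the wild type and 8.17 in the Er71-deficient cells. In both genes the untreated and wild-type arrays nearly coincided. Tagln was 1.37-fold lower with doxycycline and 1.69-fold higher in Er71-deficient cells. Cnn2 was 1.24-fold lower and 1.34-fold higher. None of these reached 2-fold.

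The gain of ER71 was addressed by the iER71 pair. Of the 8 contractile genes, 2 were at least 2-fold lower with doxycycline as measured, Myl7 and Cnn1, and none was higher at any size. With the linear offset 0 of the 8 passed 2-fold. Over all detected genes 1.23% were at least 2-fold lower, 2.41% at least 2-fold higher and 39.1% lower at any size. The median difference of the 8 genes was -0.47 on the log2 scale, beside 0 over all detected genes. A comparison of doxycycline with wild type was added after the values were seen. There Myl7, Tnnt2 and Acta2, 3 of the 8, were at least 2-fold lower as measured, beside 130 of the 8843 detected genes. The loss of ER71 was addressed by the Er71-deficient and wild-type pair. There 2 of the 8, again Myl7 and Cnn1, were at least 2-fold higher in Er71-deficient cells and 1, Acta2, was at least 2-fold lower, beside 0.43% and 1.58% of all detected genes. At any size 6 of 8 were higher, beside 30.6% of all, and the medians were 0.38 and -0.01. The iER71 pair and the Er71-deficient pair share no array. With untreated iER71 in place of wild type as the reference, 1 of the 8 was at least 2-fold higher in Er71-deficient cells, Myl7, and 0 were lower.

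The untreated iER71 and wild-type arrays, each a reference in 1 of those pairs, were also compared, to see how far apart 2 populations lie that carry no ER71 change by their treatment and genotype labels. Etv2 itself was not level between them: it was 1.57-fold higher on the untreated iER71 array, beside 1.37-fold higher with doxycycline than without and 1.42-fold lower in Er71-deficient cells than in wild type. Acta2 was the 1 contractile gene past 2-fold, lower in the untreated line, where 0.554% of detected genes were at least 2-fold lower and 0.441% at least 2-fold higher. Tnnt2 differed by -0.96 and Cnn1 by 0.64 on the log2 scale, while the other 5 genes were within 0.30. The median over the 8 genes was -0.05, beside 0 over all detected genes. For Acta2 and Tnnt2 the gap between these reference arrays was thus as large as, or larger than, their gap between Er71-deficient cells and wild type.

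**Figure D2:**
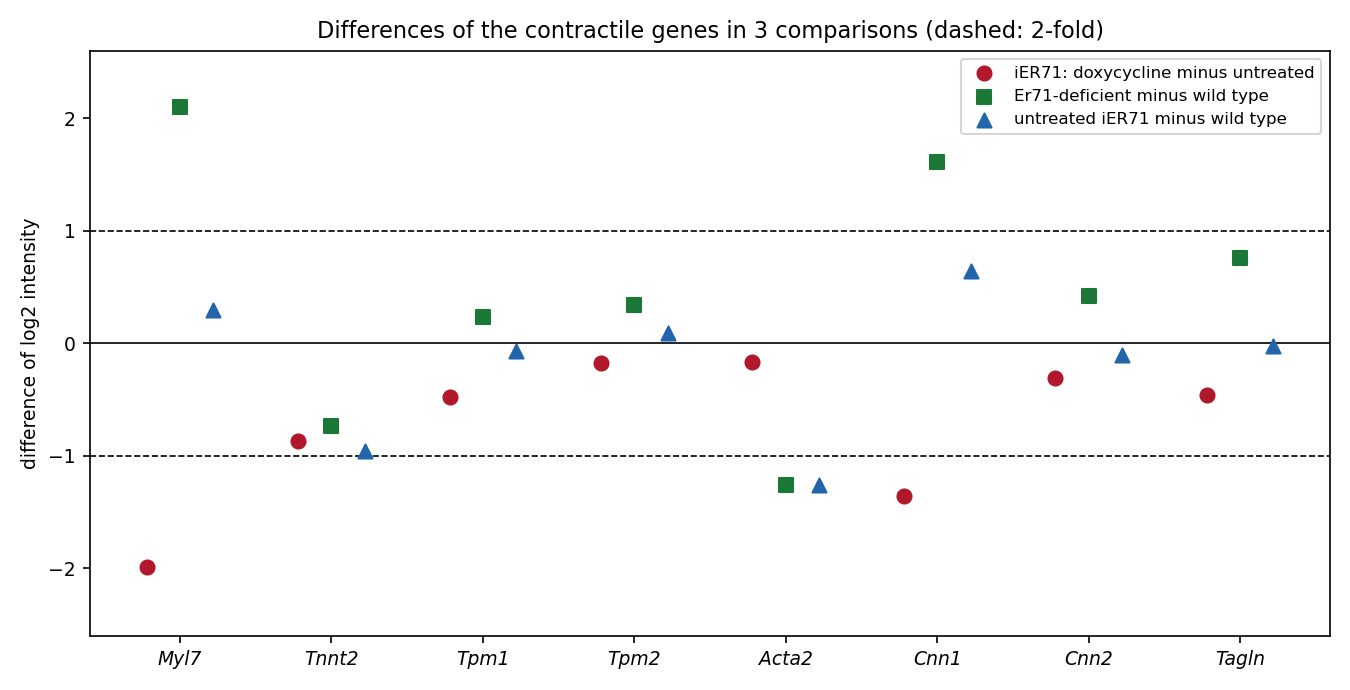
Difference of log2 intensity for each of the 8 contractile genes in 3 comparisons (circles, iER71 with minus without doxycycline; squares, Er71-deficient minus wild type; triangles, untreated iER71 minus wild type), with dashed lines at 2-fold. Myl7 and Cnn1 lie below -1 in the first and above 1 in the second, while Acta2 lies below -1 in both comparisons with wild type.

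Most other sarcomere and calcium handling genes were below the detection level on day 3, whereas most smooth muscle genes were above it. Of 33 further sarcomere genes, 21 were measured and 7 detected. Myl2, the ventricular light chain, was between log2 3.21 and 3.71 on all arrays, and the Z-disc actinin Actn2 was near 5.0. The exception in size was Tnnc1, the calcium-binding troponin subunit of heart and slow muscle, at log2 6.58 with doxycycline, 7.94 without, 8.17 in the wild type and 8.72 in the Er71-deficient cells. It was 2.57-fold lower with doxycycline (log2 -0.92 with the linear offset) and 1.47-fold higher in Er71-deficient cells. Thus it was the 1 sarcomere gene of 7 past 2-fold in the iER71 pair, and none of the 7 was in the Er71-deficient pair. Tnni1, the slow troponin I, had the same order of arrays as Tnnt2, at 5.85 with doxycycline, 6.22 without, 6.55 in the Er71-deficient cells and 6.73 in the wild type. The medians of the 7 genes were -0.10 and 0.03 in these pairs.

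Of 17 genes of calcium handling and excitation, 14 were measured and 4 detected, and none passed 2-fold in either pair. The largest difference was in Itpr2, an intracellular calcium channel, 1.73-fold higher with doxycycline and 1.35-fold lower in Er71-deficient cells as measured. Its Er71-deficient value was under the detection level, and at least 1.19-fold lower against that level. The gap junction gene Gja1 was 1.47-fold lower with doxycycline. Pln, Casq2 and Ryr2, which serve calcium release and uptake in heart muscle, lay below log2 5.3 on every array. The medians of the 4 detected genes were -0.28 and 0.08.

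Among 26 further smooth muscle genes, 21 were measured and 18 detected, with 2 at least 2-fold lower and 1 at least 2-fold higher with doxycycline, and none past 2-fold in Er71-deficient cells. Pdlim3, a Z-disc and stress fibre protein, was 5.57-fold lower with doxycycline, at log2 6.19 beside 8.67 without, 8.67 in the wild type and 9.01 in the Er71-deficient cells. The integrin subunit Itga8 was 2.47-fold lower with doxycycline and 1.96-fold higher in Er71-deficient cells as measured, with the dimmer array of each pair under the detection level, and at least 1.29-fold and 1.70-fold against that level. Cald1, which encodes the actin regulator caldesmon, went the other way, with 10.35 with doxycycline, 9.31 without, 9.74 in the Er71-deficient cells and 9.80 in the wild type, 2.05-fold higher with doxycycline. With the linear offset Itga8 and Cald1 were under 2-fold, and against wild type in place of untreated iER71 Cald1 was 1.47-fold higher with doxycycline. The list's medians were 0.00 and 0.03. Myh11, the myosin heavy chain of mature smooth muscle, was at 5.68 on all 4 arrays, below the detection level. Like Cald1, the gene for enteric smooth muscle actin, Actg2, was brightest with doxycycline (6.50, and 5.51 to 5.63 on the other arrays). Those other arrays were under the detection level, and against that level Actg2 was at least 1.26-fold higher with doxycycline than without.

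Non-muscle actin, myosin and actin-binding genes differed less. All 19 measured of 22 were detected, none passed 2-fold in either pair, and the medians were 0.06 and -0.02. At any size 14 were higher and 3 lower with doxycycline, beside 3947 and 3462 of the 8843 detected genes. The largest difference was in talin, Tln1, which links integrins to actin, at 7.75 with doxycycline and 7.11 without, and it was higher by 0.64 on the log2 scale. The non-muscle tropomyosin Tpm4 was 1.22-fold higher with doxycycline, where Tpm1 and Tpm2 were lower.

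**Figure D3:**
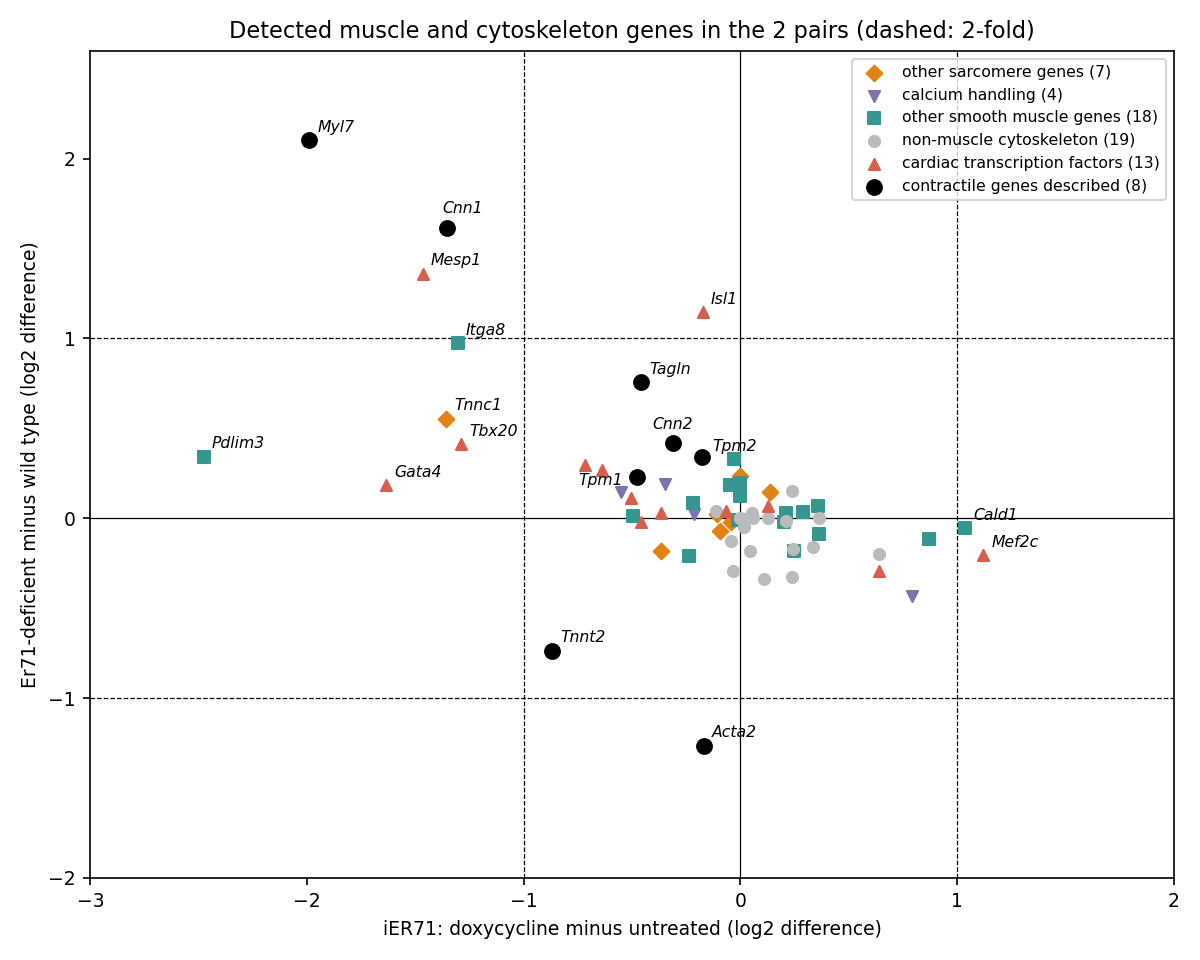
Each detected gene of the contractile, sarcomere, calcium handling, smooth muscle, non-muscle cytoskeleton and cardiac transcription factor lists by its log2 difference in the iER71 pair (horizontal) and in the Er71-deficient pair (vertical), with dashed lines at 2-fold and names for the contractile genes and those past 2-fold. Myl7 and Cnn1 lie in the upper left with Mesp1, Acta2 and Tnnt2 in the lower left, and non-muscle genes near 0.

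Regulators of these genes were set beside them. Srf itself differed little, at log2 7.41 with doxycycline, 7.54 without, 7.58 in the wild type and 7.73 in the Er71-deficient cells, and its muscle cofactor Myocd was below the detection level on all arrays. Of 13 detected genes in the list of SRF, its cofactors and its targets outside muscle, 1 was at least 2-fold higher with doxycycline, and 1 was at least 2-fold higher and 1 lower in Er71-deficient cells. The ETS partner of SRF Elk3 was 3.13-fold higher with doxycycline and 4.12-fold lower in Er71-deficient cells, the reverse of Myl7, and Egr2 was 2.05-fold higher in Er71-deficient cells (log2 0.73 with the linear offset). The Egr2 call rested on the wild-type reference: untreated iER71 was also 1.79-fold above wild type, and Er71-deficient cells were 1.14-fold above untreated iER71. The medians of this list were -0.01 and 0.00.

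Of 13 detected cardiac transcription factors (16 measured), 3 were at least 2-fold lower as measured and 1, Mef2c, higher with doxycycline, and 2 were higher in Er71-deficient cells. The medians were -0.46 and 0.11. Mesp1, the factor of the earliest cardiac mesoderm, was nearest in pattern to Cnn1: 5.98 with doxycycline, 7.44 without, 6.97 in the wild type and 8.33 in the Er71-deficient cells. Gata4 and Tbx20, heart factors that bind at many contractile genes, were 3.11-fold and 2.44-fold lower with doxycycline but only 1.14-fold and 1.33-fold higher in Er71-deficient cells than in wild type. Tbx20 was under the detection level with doxycycline, and at least 1.98-fold lower against that level. Isl1, of the second heart field, was 2.21-fold higher in Er71-deficient cells than in wild type and 1.13-fold lower with doxycycline, but untreated iER71 was also 2.09-fold above wild type, and Er71-deficient cells were only 1.06-fold above untreated iER71. Against untreated iER71 Mesp1 was 1.86-fold higher in Er71-deficient cells, so neither Mesp1 nor Isl1 stayed past 2-fold with that reference. Tbx20 and Hand1 passed 2-fold there instead, at 2.10-fold and 2.46-fold higher in Er71-deficient cells. With the linear offset Mesp1 was just under 2-fold in the Er71-deficient pair and at -0.87 in the iER71 pair, and Tbx20, Isl1 and Mef2c were under 2-fold too, so that 1 factor was called lower and 0 higher with doxycycline and 0 in Er71-deficient cells.

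Markers of other cells that make contractile proteins were measured for the same arrays. Of 13 markers of fibroblast feeders, 12 were measured and 5 detected, and none of those 5 was past 2-fold in either pair. Their summed intensity, mostly that of fibronectin (Fn1), was 3734 with doxycycline, 4452 without, 4135 in the Er71-deficient cells and 4057 in the wild type, an order that Fn1 sets. The other markers summed to 771 with doxycycline, 743 without, 707 in the Er71-deficient cells and 765 in the wild type, and the marker with the largest difference, Thy1, was 1.87-fold higher with doxycycline. Dcn, Lum and S100a4 lay at or below log2 4.53 on every array. Postn, also under the detection level on every array, was brightest in wild type, like Acta2. It was at log2 5.36 there and at 3.87 to 3.93 on the other arrays. Of 10 skeletal muscle markers, 9 were measured and 3 detected, none passed 2-fold, and the sums ran from 493 to 538. Of 7 pericyte markers, all measured and 5 detected, 1 passed 2-fold: Rgs5 was at least 8.97-fold lower with doxycycline, where it was under the detection level (log2 -2.54 with the linear offset, its smallest size over the alternatives tried). The summed intensity was 588 with doxycycline, 1294 without, 1600 in the wild type and 1869 in the Er71-deficient cells, the same order as for Tagln, Cnn2 and Tpm1. That order also turned on Rgs5, since the other markers summed to 537 with doxycycline, 652 without, 583 in the wild type and 723 in the Er71-deficient cells. The part of these cells in the result was not tested.

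The endothelial markers were higher with doxycycline, where the 8 contractile genes were lower. All 13 were detected, and 12 were higher by 2-fold or more with doxycycline. In Er71-deficient cells all 13 were lower than in wild type at any size and 6 by 2-fold or more. Over all 8843 detected genes 4679 were lower at any size and 140 by 2-fold or more. Acta2 and Tnnt2 were lower in Er71-deficient cells too, and the other 6 contractile genes were higher. The summed intensity of the endothelial markers was 10339 with doxycycline, 3005 without, 3521 in the wild type and 723 in the Er71-deficient cells. Of 12 blood markers, 11 were measured and 8 detected, with none past 2-fold in the iER71 pair. In Er71-deficient cells 3 were lower, Lmo2, Hbb-y and Hba-x. With untreated iER71 as the reference only Lmo2 stayed 2-fold lower. Hbb-y was at least 5.86-fold lower in untreated iER71 than in wild type. The sum of the blood markers was highest in wild type, 1792 beside 911 to 1275 on the other arrays, as were Acta2 and Tnnt2. Much of that gap lay in Hbb-y, with intensity 420 in wild type and 31 to 50, under the detection level, on the other arrays. Of 10 markers of undifferentiated ES cells, 8 were detected. In the iER71 pair 2 were higher and 1 lower by 2-fold, and 1 was higher in Er71-deficient cells (0 higher and 1 lower against untreated iER71). The summed intensity ran from 2642 with doxycycline to 7992 in Er71-deficient cells, an order set by Tdgf1. Without it the others were highest with doxycycline, at 1566, beside 1098 without, 1069 in the Er71-deficient cells and 797 in the wild type, and the median difference of the detected markers was 0.26 with doxycycline. Of 11 endoderm markers 9 were detected, with 3 higher and 1 lower with doxycycline and 2 lower in Er71-deficient cells. Sox17, 1 of those 3, is also counted among the endothelial markers. Of 9 neuroectoderm markers 8 were measured and 6 detected, with 1 lower with doxycycline. Of 8 markers of the sorted mesoderm 7 were measured, all of them detected, with 3 lower with doxycycline, Pdgfra, Bmp4 and Mesp1, and 2 higher in Er71-deficient cells, Mesp1 and Pdgfra. Mesp1 is also among the cardiac factors above. Against untreated iER71 neither Mesp1 nor Pdgfra stayed 2-fold higher in Er71-deficient cells, while Hand1 and Foxf1 were higher and Etv2 lower by 2-fold. The part of these cell types in the contractile differences was not tested.

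**Figure D4:**
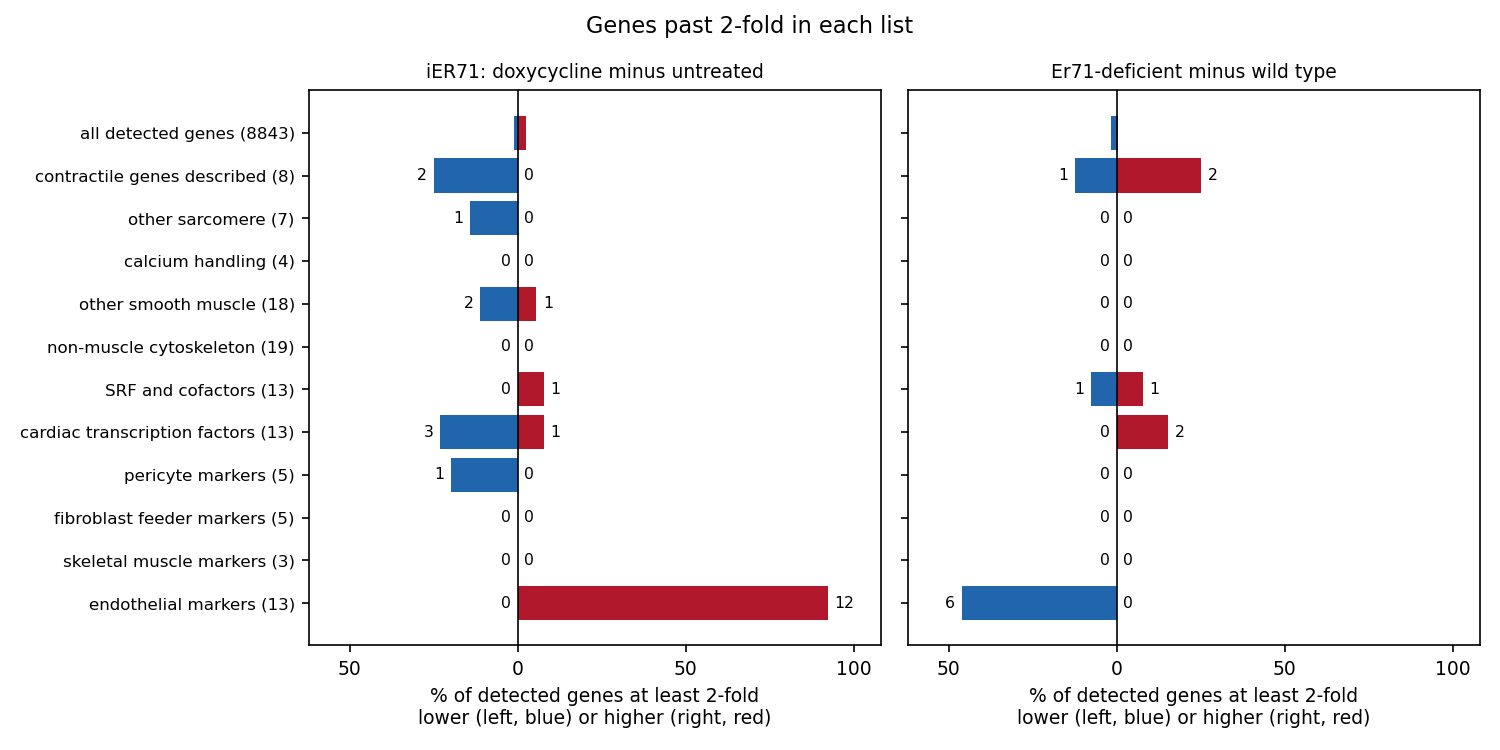
Share of the detected genes of each list that were at least 2-fold lower (blue, left) or higher (red, right) in the iER71 pair and in the Er71-deficient pair, with the number of genes at each bar and the number detected in parentheses. The contractile genes have 2 genes lower in the first pair and 2 higher and 1 lower in the second, and the endothelial markers have 12 higher and 6 lower.

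For each contractile gene the detected genes with the most similar pattern were taken by the distance between log2 levels on the 4 arrays, each centred on its own mean. With only 4 arrays such a distance is a description. Nearest to Myl7 were the Wnt regulator Dact1 (distance 0.36), the growth factor receptor Pdgfra (0.66) and the homeobox gene Lhx1 (0.82). Like Myl7, these genes were under the detection level on the doxycycline array. Nearest to Cnn1 were Mesp1 (0.22), the collagen-modifying enzyme P3h2 (0.45) and the Nodal co-receptor Cfc1 (0.47). Tagln was almost matched by the immediate-early gene Fos (0.055), the matricellular gene Ccn1 (0.067) and the caveolar gene Cavin4 (0.12). Fos, for example, was at 5.78 with doxycycline, 6.29 without, 6.31 in the wild type and 7.10 in the Er71-deficient cells, so its steps were close to those of Tagln. Its doxycycline value, unlike that of Tagln, was under the detection level.

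The genes that were brightest in wild type had other neighbours. Nearest to Tnnt2 were Wnt2 (0.21), the blood factor Runx1 (0.22) and Hoxb2 (0.30), and nearest to Acta2 were the DNA replication gene Pclaf (0.22), Art4 (0.26) and Igfbp5 (0.30). Art4 and Igfbp5 were above the detection level only in wild type. Wnt2 was under it on both iER71 arrays, and Hoxb2 on the doxycycline array. The genes of narrow range had many close neighbours, with Ccne2 nearest to Cnn2 (0.069), Mmgt1 to Tpm1 (0.039) and Mettl4 to Tpm2 (0.022). Among the contractile genes themselves the closest were Cnn2 and Tpm1 (0.18), followed by Tagln and Cnn2 (0.31), and the farthest apart were Myl7 and Acta2 (2.90).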

How the data were processed

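RNA of sorted Flk-1-positive cells was measured on 4 Affymetrix arrays, 1 per group. The deposited table holds 23332 probe sets with 1 linear intensity per array, which the authors had summarised and normalized. Affymetrix Expression Console, RMA and the build mm8 are named in the submitters' processing notes, without versions. As RMA commonly returns log2 values and these are linear, log2 was taken here of the deposited intensity. Array medians lay between 71.3 and 72.3, and arrays correlated at Pearson's r of 0.967 to 0.979 across probe sets.

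The platform annotation gave 14996 probe sets 1 symbol, 1019 several and 7317 none. The brightest probe set stood for a gene, and fold calls at 2-fold used the 8843 detected genes. The code that counts fold calls was checked for errors on simulated data, which gives the calls no error rate. Where the dimmer array of a pair was under the detection level, an "at least" fold sets it to that level. Alternatives were median centring, quantile normalization and cyclic loess (limma 3.58.1, R 4.3.3), a linear offset of 71.6, other detection filters, the mean of probe sets and a threshold of 1.5-fold. Tables were handled with pandas 2.3.3.

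The 8 genes and the 15 comparison lists were chosen with earlier results of these data known. Named genes were the contractile genes, up to 4 detected genes per list with the largest difference (every sarcomere, calcium handling or smooth muscle gene past 2-fold), Etv2, Kdr and the 3 nearest genes in pattern. Other genes, such as Myl2, Actn2, Tpm4, Srf and Mef2c, were named after their values were seen.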

Additional observations from a re-analysis of the deposited data

How the results depend on the processing

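With 1 array per group no replicate could be left out and no paired analysis was possible. Under the 3 normalizations and the offset, the settings that can change a gene's value, 90 of 96 contractile gene differences kept their direction and side of 2-fold. Most of the 96 were under 2-fold in the main setting too. The 4 that went under 2-fold did so with the linear offset: Myl7 and Cnn1 with doxycycline, and Acta2 below wild type on 2 arrays. Of the calls past 2-fold, only Myl7 and Cnn1 in Er71-deficient cells stayed there under all of these settings. Tagln, at -0.02 between untreated iER71 and wild type, turned to 0.021 after quantile normalization and 0.012 after cyclic loess. Of 948 differences of other named genes under these settings 909 stayed on their side, many of them under 2-fold in the main setting too. Over the alternative settings 431 of 480 list counts stayed within 1.5 times, but many of these were 0 in both settings. Of the 49 that moved, 15 did so with the linear offset, 14 with the stricter filter, 19 at 1.5-fold and 1 with no filter. The 8 genes lowest with doxycycline and the 6 also highest in Er71-deficient cells kept those counts under each of 3 normalizations, a check added after the values were seen. The number of all genes with the latter order was 811 and became 1294 after cyclic loess.

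The linear offset left 89 genes higher and 48 lower with doxycycline, 10 higher and 49 lower in Er71-deficient cells, and 8 higher and 13 lower in untreated iER71 than in wild type. The contractile genes lower then numbered 0, 0 and 0 in these comparisons. With the stricter detection filter, which tests 4084 genes and 3 contractile genes, the counts were 57 and 56, 12 and 47, and 11 and 19, with 1 contractile gene lower with doxycycline, 1 higher and 0 lower in Er71-deficient cells and 0 lower in untreated iER71. With no filter 78 genes were higher in Er71-deficient cells, and 97 were higher and 94 lower in untreated iER71. At 1.5-fold the counts were 558 and 280, 136 and 394, and 148 and 218, with 2 contractile genes lower in Er71-deficient cells and 1 higher and 2 lower in untreated iER71. These shifts follow from how offset, filter and threshold are built. With untreated iER71 as the reference for Er71-deficient cells, also added afterwards, 1 contractile gene was higher and 0 lower, and Tnnt2 was at 0.22. With wild type as the reference for the doxycycline array, added afterwards too, 3 contractile genes were lower and 0 higher, and Cnn1 was at -0.71. Counts in the main setting were 213 and 109, 38 and 140, and 39 and 49. The cause of the difference between the reference arrays was not tested.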
